A study of Mus musculus with 6 samples.

Results

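Myelinating oligodendrocytes of the adult mouse olfactory bulb were described from single-cell RNA counts. Cells were taken by the cluster name MyOligo in the deposited annotation, which gave 858 of 51426 annotated cells (1.67%) among 38 clusters. They came from 6 libraries of C57BL/6NJ mice aged 14 weeks, with 2 libraries for each of 3 conditions. Control libraries came from bulbs listed with no manipulation, although the study's text in 1 place uses the side with the open naris as control and elsewhere speaks of naive mice. Under the first reading, control and naris occluded libraries could hold bulbs of the same mice, and the tests, which took all 6 libraries as separate, made no allowance for that. Naris occluded libraries came from bulbs deprived of odour input by closing the nostril, and trained libraries from mice taught to discriminate odours, for 6 weeks. According to the study's text animals were pooled, both sexes were used and trained mice had restricted access to water. In MyOligo cells of each group, Xist was found in replicate 2 alone and the Y-linked Ddx3y in replicate 1 alone, so replicate 1 is called the male and replicate 2 the female pool. All mice were wild type, so no allele or transgene separated the groups. Each group therefore held 1 male and 1 female pool, and sex could not be told apart from library within a group.

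Oligodendrocytes arise from precursors that carry the platelet-derived growth factor receptor Pdgfra, pass through a committed, newly formed stage and then wrap axons in myelin. Myelin is a compacted stack of membrane rich in galactolipids and cholesterol, held together by a few abundant proteins such as myelin basic protein (Mbp). Mature cells also feed axons, store iron and take up ions. In the olfactory bulb, myelin lies around the axons of mitral and tufted cells, whereas the unmyelinated axons of the sensory neurons are bundled by a different glial cell, the olfactory ensheathing cell.

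The libraries held 167 and 127 MyOligo cells in control, 135 and 224 in naris occluded, and 111 and 94 in trained, in the order of replicates 1 and 2. Unique molecular identifiers (UMIs), which count RNA molecules, summed to between 355535 and 629076 per library over these cells. The median cell held 3322 UMIs (range 556 to 12615) and 1512 genes, which made MyOligo the cluster with the 5th highest median depth, against 1354 UMIs over all annotated cells. Library medians of the mitochondrial share of UMIs ran from 7.21% to 9.18%. No cell barcode was shared between libraries among these cells. Levels below are CPM, the counts summed over the cells of a library and scaled to 1000000 UMIs, with the SD over the 6 libraries. The chemistry counts 3′ ends, so a level is molecules and is not divided by gene length. Levels across clusters are given without a test, since expression itself had defined the clusters.

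The cluster carried the markers of its name. Mag, myelin-associated glycoprotein, was measured at 1835 and 2056 CPM in control, 1946 and 1787 CPM in naris occluded, and 1547 and 1998 CPM in trained. The 6 values lay close together and the groups overlapped. The precursor cluster (OPC, 397 cells) was next at 167 CPM, 11.2-fold lower than the MyOligo mean of 1862 ± 184 CPM (SD, n = 6). All 12 myelinating markers fixed for the check were higher in MyOligo than in any other cluster in each of the 6 libraries, and all 858 cells held at least 10 UMIs of these 12 genes together. Precursor markers were nearly missing, with Pdgfra at 0 in naris occluded 2 and in both trained libraries and at most 5.19 CPM elsewhere, and no cell held 10 or more UMIs of the 8 precursor markers. Of the 4 Schwann cell markers, which mark the myelinating cells of peripheral nerve, 3 were in the table, Prx was at 0 in every library, and the 3 together reached at most 4.77 CPM.

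**Figure D1:**
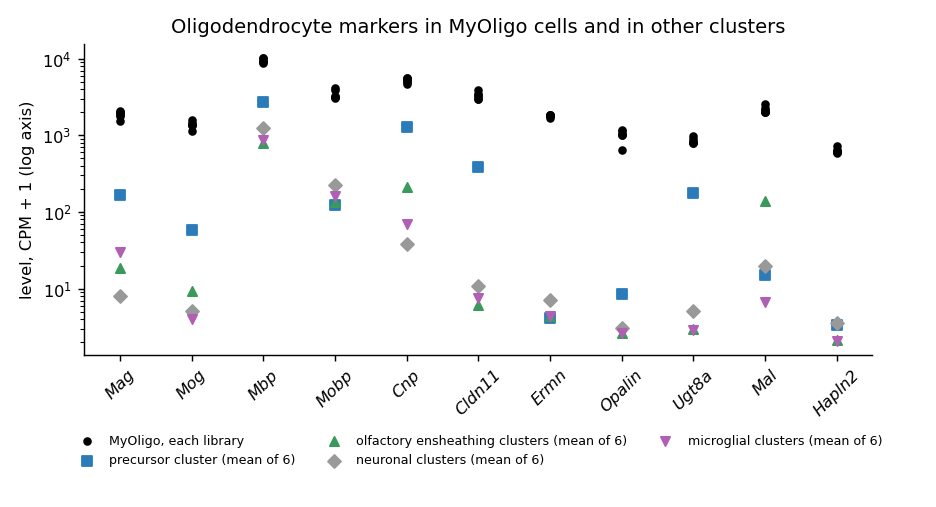
Level of 11 of the 12 myelinating oligodendrocyte markers on a log axis (CPM + 1), with black points for the MyOligo cells of each of the 6 libraries and coloured symbols for the means over 6 libraries of the precursor, olfactory ensheathing, neuronal and microglial clusters. The black points lie above every coloured symbol for each gene, by the narrowest margin for Mbp.

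Some MyOligo barcodes also held RNA of other cells. A total of 59 cells held 10 or more UMIs of the listed markers of another type, which left 799 cells under that limit. The limit was the same for deep and shallow cells, and cells under it could hold fewer such UMIs. Among the 799 cells Fabp7, a listed ensheathing marker, was still at 178 to 350 CPM per library. Below, cells holding markers of another type are these 59 alone. Olfactory ensheathing markers were found in 24 such cells, astrocyte markers in 16, microglial markers in 13, neuronal markers in 7 and endothelial markers in 5, while mural, sensory neuron and red blood cell markers were each found in 1. According to the study's methods, doublets had been removed before deposition, and no further removal was made. Calls that changed when these 59 cells were left out are given with each comparison.

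Transcripts of the sheath proteins were among the most abundant of these cells. Of 30 listed genes of the myelin membrane and sheath, 24 had their highest mean level of all clusters in MyOligo, 22 of them in every library. Mbp, which draws the inner faces of the membrane together, was measured at 8950 and 9305 CPM in control, 8732 and 9328 CPM in naris occluded, and 10160 and 10090 CPM in trained. Both trained libraries were above the other 4, a difference that did not pass the test given further on. Cnp (5229 ± 369 CPM), a phosphodiesterase of the cytoplasmic channels of myelin, and Mobp (3443 ± 461 CPM) followed. Cldn11, the claudin of the tight junctions between myelin turns, was measured at 3324 ± 358 CPM, against 1096 CPM in the mesenchymal cluster Mes2. Ermn (1799 ± 72.7 CPM), a cytoskeletal protein of the sheath, had 116 times its next highest cluster mean. Mog (1376 ± 153 CPM), a glycoprotein of the outermost layer, had 24.3 times the level of the precursor cluster. The 12 markers alone took between 5.85% and 6.63% of all UMIs of these cells.

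Among the 20 highest nuclear genes outside the ribosomal proteins were the iron store Fth1 (23620 ± 1168 CPM), the prostaglandin D2 synthase Ptgds (18550 ± 2888 CPM), carbonic anhydrase Car2 (5318 ± 318 CPM), the small chaperone Cryab (4947 ± 131 CPM) and transferrin, Trf (4816 ± 554 CPM). The nuclear noncoding RNA Malat1 was first, at 52210 ± 8023 CPM. Together the 20 took between 18.1% and 20.6% of UMIs per library. Ptgds had a far higher mean, 155000 CPM, in the mesenchymal cluster Mes1.

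Lipid genes split by pathway. Of 22 genes of myelin lipid synthesis, 10 were highest in MyOligo on the mean, 6 of them in every library. Enpp2 (1534 ± 148 CPM), which makes lysophosphatidic acid, Ugt8a (845 ± 73.9 CPM), which makes galactosylceramide, and Fa2h (356 ± 56.5 CPM), which hydroxylates its fatty acid, had between 4.12 and 5.54 times their next highest cluster, the precursor cluster in each case. Of 22 genes of cholesterol synthesis, none was highest in MyOligo. Hmgcs1, an early enzyme of that pathway, was measured at 144 ± 23.1 CPM against 233 CPM in the ensheathing clusters together, and Sqle, squalene epoxidase, at 33.7 ± 11.1 CPM against 100 CPM.

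Some listed transcription factors were higher than in precursors and others lower. Nkx6-2, which acts late in myelination, was measured at 613 ± 54.1 CPM, 16.0 times the precursor cluster. Myrf, the regulator of myelin genes, was measured at 214 ± 14.6 CPM, 3.66 times the precursor cluster, and St18 at 84.5 ± 20.9 CPM, 4.51 times. The 3 factors Olig1, Olig2 and Sox10, already active in precursors, were lower than there. Olig1 was measured at 979 ± 134 CPM against 2591 CPM, Olig2 at 148 ± 14.3 CPM against 784 CPM, and Sox10 at 270 ± 30.3 CPM against 412 CPM. Zfp488 and Nkx2-2, which act in oligodendrocyte differentiation, were lower too, at 8.89 ± 2.93 CPM against 57.4 CPM and 51.8 ± 5.16 CPM against 174 CPM. In all, 5 of 18 listed factors were highest in MyOligo, and the 10 listed precursor genes and the 9 measured newly formed genes (of 10 listed) were each higher in another cluster.

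Genes of support functions followed single enzymes rather than whole lists. Of 14 iron genes, 2 were highest in MyOligo, Fth1 (3.12 times the macrophage cluster) and Trf (3.41 times), whereas the transferrin receptor Tfrc was at 10.1 ± 4.58 CPM. Of 15 genes of metabolic support, 4 were highest, among them Car2 (11.0 times the next cluster), Qdpr (2006 ± 161 CPM, 16.0 times), which recycles tetrahydrobiopterin, and the creatine enzymes Gatm and Gamt (4.07 and 2.55 times). The lactate transporter Slc16a1 was at 47.3 ± 8.91 CPM, lower than in the endothelial cluster EC1. Of 24 receptors and signalling genes, 4 were highest. These were Gpr37 (644 ± 84.9 CPM), an orphan receptor of myelinating cells, S1pr5 (139 ± 8.02 CPM), a sphingosine-1-phosphate receptor, Fgfr2 (255 ± 13.2 CPM) and Lpar1 (315 ± 35.9 CPM). Il33, a nuclear cytokine, was the 1 of 17 immune and stress genes that was highest here, at 750 ± 118 CPM against 51.9 CPM in the astrocyte cluster Astro1. Of 19 immediate early genes 1 was highest on the mean but not in every library, Arc, at 39.9 CPM against 33.2 CPM in the neuronal cluster N10. Fos was at 66.0 ± 18.2 CPM against 2564 CPM in microglia of MicroG1, and Egr2 was at 0 in every library.

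Shares of cells with a UMI depend on depth, so each cell was also thinned to 1000 UMIs, which left out 37 shallower cells. Mag had a UMI in 96.9% of cells and in 80.2% after thinning, against 3.22% of thinned MicroG1 microglia, which should lack it. Opalin, a sialylated protein of late oligodendrocytes, had a UMI in 80.9% and 60.8%, against 0.129% in MicroG1. Mbp had a UMI in 99.3% and 99.5%, but also in 37.97% of thinned MicroG1 cells. Median depths before thinning were 3322 UMIs in MyOligo and 2336 UMIs in MicroG1.

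Transcripts of Mbp were found at some level in every cluster. Over the other 37 clusters, the median level of Mbp was 8.24% of that in MyOligo, and that of Mobp 4.33%. The medians were 1.07% for Cnp, 0.382% for Mag, 0.291% for Mog and 0.197% for Opalin. As background, the messenger RNAs of Mbp and Mobp are known to be carried out into the processes of the cell. The neuronal cluster N6 held the most, 4731 CPM of Mbp. In the 11 clusters with a median depth under 1000 UMIs, Mbp was between 1304 and 4731 CPM (median 1740), and in the 26 deeper clusters between 334 and 2710 CPM (median 680). The 2 ranges overlapped. MyOligo cells held 24.7% of all Mbp UMIs of the annotated cells, but 94.7% of Opalin, 93.1% of Ermn, 89.8% of Mog and 82.5% of Mag. Which source gave the Mbp of the other clusters was not tested.

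**Figure D2:**
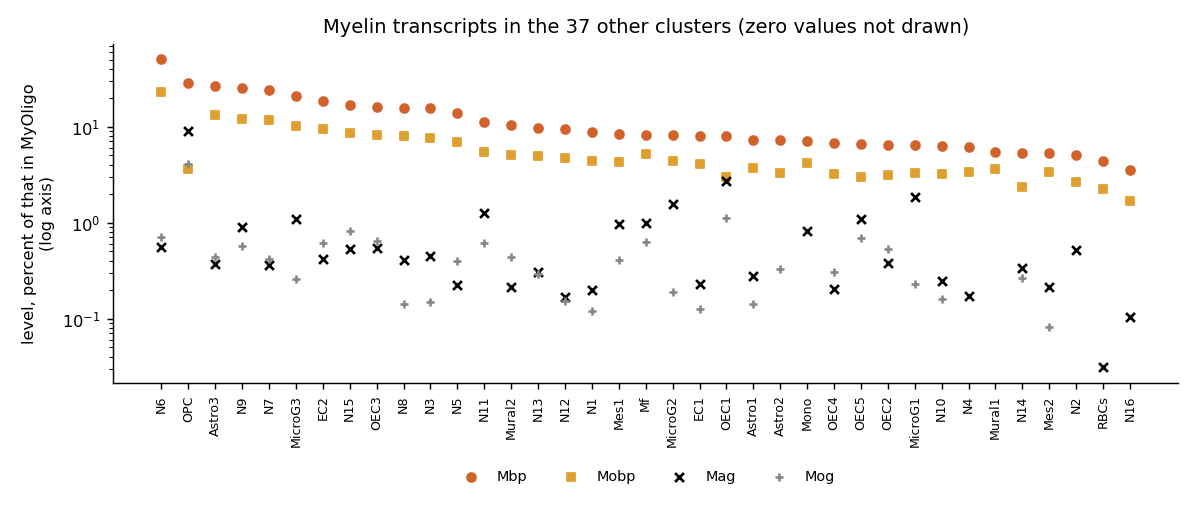
Level of 4 myelin transcripts in each of the 37 other clusters, as a percent of the level in MyOligo, on a log axis and ordered by Mbp, with levels of 0 left out. Mbp and Mobp lie above Mag and Mog in most clusters, with the highest values of both in N6.

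Some genes varied together among MyOligo cells. Over 20 genes known to vary between mature oligodendrocytes, Pearson correlations of log2(CPM + 100) across the 94 to 224 cells of a library had the same sign in all 6 libraries for 100 of 190 pairs, and for each of the 38 pairs whose mean correlation was at least 0.3 in size. The 38 pairs were picked by the mean of the same 6 values, and over all 190 pairs the median size of the mean correlation was 0.114. These correlations are descriptions across cells that share a library and differ in depth, and they carry no test. Ptgds correlated with Opalin at a mean r of 0.58 (range over libraries 0.479 to 0.655) and with Il33 at 0.504. Klk6, a secreted protease, and S100b, a calcium-binding protein, correlated with each other at 0.513. Ptgds correlated with Klk6 at −0.659 (range −0.720 to −0.566) and with S100b at −0.595. Ptgds was therefore opposed to Klk6 and to S100b in every library. Apod with Trf (0.581) and Car2 with Cryab (0.575) were further pairs with a high correlation. Of these 20 genes, 12 were highest in MyOligo among all clusters on the mean, 10 of them in every library.

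Klk6 was rare, with 0 UMIs in 88.1% of cells, and its 95th percentile was 936 CPM. Opalin had 0 UMIs in 19.1% of cells and a median of 985 CPM. S100b had 0 UMIs in 44.6% of cells but a 95th percentile of 4039 CPM. By library, Klk6 was measured at 294 and 129 CPM in control, 230 and 161 CPM in naris occluded, and 287 and 170 CPM in trained, so that the male library had the higher level in each condition and the groups overlapped.

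**Figure D3:**
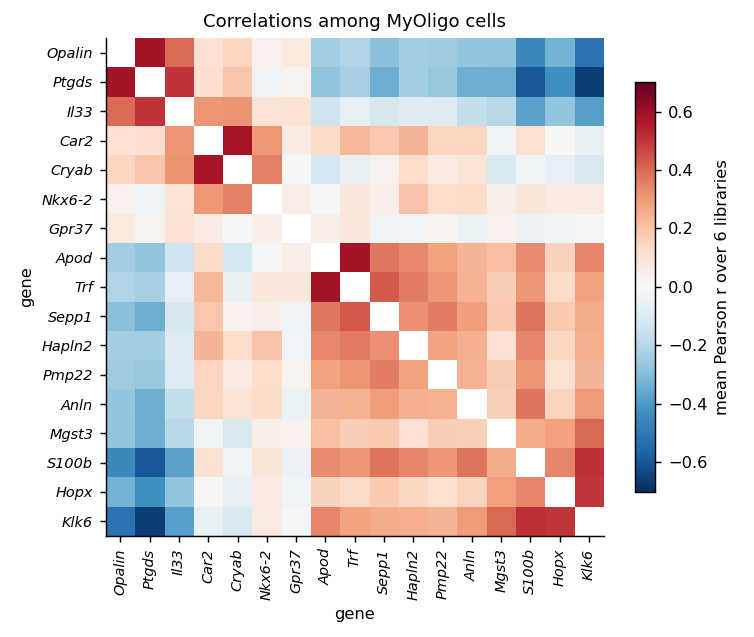
Mean Pearson correlation over the 6 libraries between 17 of the 20 genes across MyOligo cells, as a colour scale from blue (negative) to red (positive) with the diagonal left white. Opalin, Ptgds and Il33 form a red block at the upper left that is blue against Klk6, Hopx and S100b.

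A few MyOligo cells held markers of an earlier stage. Markers of committed or newly formed cells reached 10 or more UMIs in 5 cells, 1 in each library but naris occluded 1, with between 11 and 56 such UMIs. These cells were deep, with 6305 to 12562 UMIs, and held between 112 and 247 UMIs of Mbp and no UMI of Pdgfra. Opalin was at 0 UMIs in 3 of the 5. Marcks, an actin-binding substrate of protein kinase C, had 36 to 88 UMIs in each of them, and they held most or much of that gene's count in their libraries, for example 88 of 108 UMIs in trained 1 and 78 of 104 UMIs in trained 2.

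The first comparison was of numbers. MyOligo cells made up 1.67% of cells (95% Wilson interval 1.44 to 1.94) and 1.65% (1.39 to 1.96) in the control libraries, 1.85% (1.57 to 2.19) and 2.45% (2.15 to 2.78) in naris occluded, and 1.05% (0.873 to 1.26) and 1.40% (1.15 to 1.71) in trained. The trained libraries were the lowest, the naris occluded libraries the highest, and no groups overlapped. The intervals cover counting error only. The shares are of cells recovered after dissociation, and each also depends on how many other cells were recovered. Precursor cells made up 0.659% to 0.843% of each library, and there were 2.32 and 1.95 MyOligo cells per precursor in control, 2.81 and 2.91 in naris occluded, and 1.31 and 1.88 in trained.

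None of these differences passed the test over libraries. Against control, the log2 ratio of shares was 0.38 (SE 0.29) in naris occluded (adjusted p = 0.534, edgeR) and −0.44 (SE 0.29) in trained (adjusted p = 0.671, edgeR). Trained against naris occluded gave −0.82 (SE 0.29, adjusted p = 0.0545, edgeR). For background, 1 of 38 clusters (2.63%) was called between naris occluded and control, 0 between trained and control (3 at an unadjusted p under 0.05) and 6 (15.8%) between trained and naris occluded. The smallest p that an exact permutation test (two-sided) allows for 2 libraries per group is 0.33, and each of the 3 comparisons gave that value. With the replicate number as a block, trained against naris occluded passed at −0.81 (adjusted p = 0.0435, edgeR), and without trained 2 at −1.04 (adjusted p = 0.0370, edgeR). A chi-square test on pooled cells, which takes cells as replicates, passed in all 3 comparisons. Other settings over libraries did not pass. The ratio was −1.005 without naris occluded 1 (adjusted p = 0.0526) and −0.67 among nonneuronal cells (adjusted p = 0.0544, edgeR). With cells of at least 1000 UMIs alone the log2 ratio was −0.48 (adjusted p = 0.530, edgeR), and 0.18 between naris occluded and control. Trained against naris occluded gave −0.62 without trained 1 (adjusted p = 0.460), −0.60 without naris occluded 2 (adjusted p = 0.294) and −0.67 with TMM factors (adjusted p = 0.105, edgeR).

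Between trained and control, the clearest difference was in metallothioneins, small cysteine-rich proteins that bind zinc and copper. Mt1 was measured at 1380 and 1163 CPM in control, 1197 and 1685 CPM in naris occluded, and 2543 and 2379 CPM in trained. Mt2 was measured at 124 and 112 CPM in control, 138 and 175 CPM in naris occluded, and 281 and 310 CPM in trained. In both genes each trained library was above all 4 others, while control and naris occluded overlapped for Mt1. Against control the log2 fold change was 0.95 for Mt1 (SE 0.14, adjusted p = 0.00144, edgeR) and 1.31 for Mt2 (SE 0.19, adjusted p = 0.000967, edgeR). Against naris occluded it was 0.76 for Mt1 (SE 0.14, adjusted p = 0.0142, edgeR) and 0.90 for Mt2 (SE 0.18, adjusted p = 0.0203, edgeR). In the third member measured here, Mt3, the levels were 339 and 242 CPM in control and 444 and 280 CPM in trained, and the groups overlapped.

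Both genes are neighbours on chromosome 8, with the annotated starts 6471 bases apart. Their promoter sequences are shown because these 2 genes rose together. They are from RefSeq on GRCm38.p6, plus strand, from 250 bases before the start to 30 bases after it, and capitals mark matches on either strand to the core of the metal response element, searched as TGCACNC or TGCGCNC. The Mt2 window is chr8:94172368-94172647 and held 4 matches, and the Mt1 window is chr8:94178839-94179118 and held 3.
Mt2: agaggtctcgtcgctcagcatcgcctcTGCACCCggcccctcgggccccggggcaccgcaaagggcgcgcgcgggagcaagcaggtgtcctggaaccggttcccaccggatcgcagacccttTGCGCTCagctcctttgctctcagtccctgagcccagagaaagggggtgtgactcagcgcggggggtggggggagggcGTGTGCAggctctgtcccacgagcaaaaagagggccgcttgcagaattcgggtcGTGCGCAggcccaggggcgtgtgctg
Mt1: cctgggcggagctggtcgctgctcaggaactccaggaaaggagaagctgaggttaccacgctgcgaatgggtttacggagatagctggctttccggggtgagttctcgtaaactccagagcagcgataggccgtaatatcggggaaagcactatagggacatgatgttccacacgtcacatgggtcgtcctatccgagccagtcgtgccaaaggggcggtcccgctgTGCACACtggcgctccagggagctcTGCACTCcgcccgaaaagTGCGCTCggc
Of 32851 promoter windows of that table, each from 250 bases before to 50 bases after a start, 25.7% held at least 1 match, 7.11% at least 2 and 0.517% at least 4. Windows of the other genes that rose in trained cells held 2 matches (Polr3e), 1 (Cerk and Adipor2) and 0 (Arid5b), and of the 6 windows of Sgk1, a gene described further on, 1 held 1 match and the other 5 held 0. The share of windows with at least 3 matches, the number in Mt1, was not counted. A match is a description of letters and not a site of binding. The matches in Mt1 and Mt2 are no test of these data, and why the 2 genes rose was not tested.

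The rise of the metallothioneins was larger in MyOligo than in the other cells of the same libraries. In all other cells together the log2 fold change of trained against control was 0.29 for Mt1 and 0.34 for Mt2, and the difference from MyOligo was 0.65 (adjusted p = 0.00586, edgeR) and 0.96 (adjusted p = 0.00338, edgeR). Against the precursor and ensheathing clusters alone the difference did not pass (adjusted p = 0.492 for Mt1 and 0.155 for Mt2, edgeR). Here and below, these clusters were summed together, 397 precursor cells with 11551 ensheathing cells, so precursors by themselves were not tested. In precursors Mt1 was measured at 1066 and 1048 CPM in control and 1043 and 810 CPM in trained, whereas in ensheathing cells it was at 1439 and 1375 CPM in control and 2216 and 1911 CPM in trained. Trained libraries were thus above control in ensheathing cells and below control in precursors. Astrocytes, which had the highest metallothionein levels of these cell types, had 6610 and 6624 CPM of Mt1 in control and 8639 and 8684 CPM in trained. The summed level of the 6 astrocyte markers in MyOligo was 363 and 477 CPM in control and 602 and 337 CPM in trained, none of the 6 was at 0 in all libraries, and their part in the result was not tested. Without the 59 cells with markers of another type, the log2 fold change was 1.13 for Mt1 and 1.49 for Mt2.

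In all, 8 of 6587 genes tested passed between trained and control (0.121%), 7 of them higher in trained (0.106%) and 1 lower (0.0152%). Polr3e, a subunit of RNA polymerase III, was measured at 92.9 and 84.9 CPM in control, 100 and 71.5 CPM in naris occluded, and 270 and 181 CPM in trained. Adipor2, an adiponectin receptor with ceramidase activity, was measured at 54.8 and 78.5, 53.6 and 58.8, and 194 and 148 CPM. Cerk, which phosphorylates ceramide, was measured at 44.8 and 48.8, 72.7 and 76.3, and 138 and 115 CPM. For these 3 genes both trained libraries were above the other 4. The log2 fold changes against control were 1.33 (SE 0.22, adjusted p = 0.00515, edgeR) for Polr3e, 1.37 (SE 0.24, adjusted p = 0.00828, edgeR) for Adipor2 and 1.43 (SE 0.26, adjusted p = 0.00828, edgeR) for Cerk. More cells had a UMI, with Polr3e in 45.1% and 46.8% of trained cells against 16.5% to 28.2% in the other 4 libraries.

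Arid5b, a DNA-binding protein, was measured at 63.1 and 63.7 CPM in control, 67.5 and 107 CPM in naris occluded, and 177 and 129 CPM in trained, with a log2 fold change of trained against control of 1.27 (SE 0.26, adjusted p = 0.0447, edgeR). Fabp5, which carries fatty acids in the cytosol, was the only gene that fell among the 8, from 1160 and 1035 CPM in control to 709 and 702 CPM in trained, with 971 and 801 CPM in naris occluded. Its trained libraries were the lowest of the 6, and its log2 fold change was −0.64 (SE 0.13, adjusted p = 0.0469, edgeR).

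All other cells, summed per library, had smaller values. There the log2 fold change was −0.06 for Polr3e, 0.26 for Adipor2, 0.13 for Cerk, 0.02 for Arid5b and 0.01 for Fabp5, and the difference from MyOligo passed for each of the 5 (adjusted p between 0.000732 and 0.0291, edgeR). Against precursor and ensheathing cells alone, it passed for Arid5b and Fabp5 but not for Polr3e (adjusted p = 0.113), Adipor2 (0.427) or Cerk (0.577, edgeR). Precursors had Polr3e at 127 and 260 CPM in control and 184 and 283 CPM in trained, levels as high as in MyOligo. Over all genes the difference from the other cells passed for 12 of 14717 genes between trained and control (0.0815%), and for 10 (0.0679%) between naris occluded and control and 25 (0.17%) between trained and naris occluded. That fit gave every gene the shared spread, so a gene that is high in 1 library or cell can pass. Leaving out 1 library changed which genes passed. Of the 12 genes between trained and control, 5 remained without control 1, 1 without control 2, 4 without trained 1, 5 without trained 2 and 12 without either naris occluded library. Of the 25 between trained and naris occluded, 12 remained without naris occluded 2 or trained 1 and 15 to 21 without any 1 of the others.

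Support for these calls was uneven. DESeq2 called 2 genes between trained and control, Mt1 and Mt2. Without control 1, edgeR called 3 genes, among them Mt1 and Mt2, and the adjusted p rose to 0.209 for Cerk, 0.265 for Adipor2, 0.0833 for Polr3e, 0.262 for Arid5b and 0.519 for Fabp5 (edgeR). For Sgk1 it rose to 0.159 (edgeR). Without control 2 it rose to 0.140 for Arid5b and 0.143 for Fabp5 (edgeR), and without trained 1 to 0.0639 for Polr3e and 0.206 for Arid5b (edgeR). Without the 59 cells with markers of another type, all 8 genes were called, and so were Marcks (1.535, adjusted p = 0.000352), Tmem2, Map7d2, Mical3 and Stip1 (1.265 to 3.31, adjusted p from 0.0277 to 0.0349, edgeR), the last 3 chosen after their values were seen. Among the cells left out was the one with newly formed markers in control 1, and Marcks fell there from 199 to 77.7 CPM, whereas the trained libraries stood at 326 and 265 CPM. Without the 5 cells with newly formed markers instead, Marcks was at −0.35, and 6 of the 8 genes remained, whereas Fabp5 (−0.60, adjusted p = 0.0639) and Sgk1 (2.21, adjusted p = 0.0608, edgeR) kept about the same log2 fold change but did not pass.

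**Figure D4:**
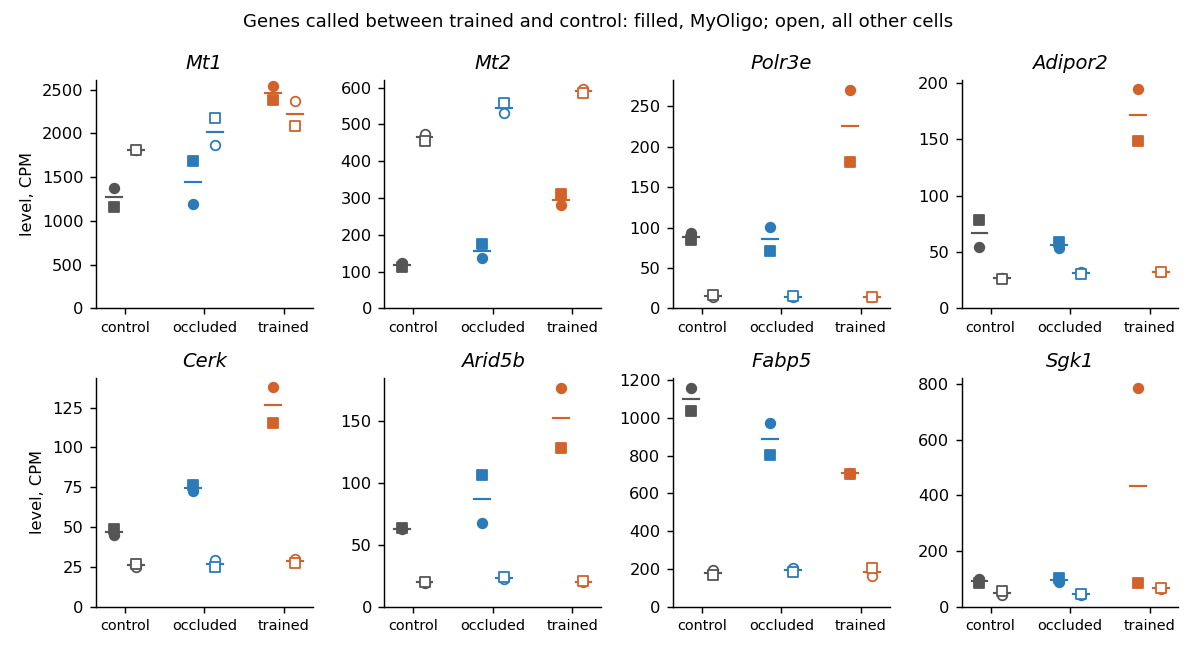
CPM in each library of the 8 genes called between trained and control, by condition, with filled symbols for MyOligo cells and open symbols for all other cells of the same library, circles for replicate 1, squares for replicate 2 and lines for the mean of each pair. Filled symbols of both trained libraries stand apart for Mt1, Mt2, Polr3e, Adipor2 and Cerk, whereas for Sgk1 a single trained library does.

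Sgk1, a kinase named for its induction by serum and glucocorticoids, was the 8th gene and rested on 1 library. It was measured at 101 and 87.0 CPM in control, 88.2 and 105 CPM in naris occluded, and 785 and 85.0 CPM in trained. Trained 1 alone was high, and trained 2 was the lowest of the 6. Within that library the level was spread over many cells, since 74 of 111 cells (66.7%) had a UMI, none more than 13, against 22.8% to 29.9% in the other 5 libraries. The log2 fold change of 2.195 (SE 0.46, adjusted p = 0.0471, edgeR) became −0.17 without trained 1. Trained 1 was also the highest library in endothelial cells (184 CPM against 64.0 to 150 CPM), neurons (18.1 against 9.82 to 14.2 CPM), astrocytes (11.7 against 2.84 to 7.15 CPM) and ensheathing cells (6.53 against 1.36 to 5.52 CPM). It was not in precursors, at 213 CPM against 149 to 266 CPM, or in microglia, at 321 CPM against 312 to 406 CPM.

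Sgk1 has 6 annotated starts in the RefSeq table, and 1 of its windows, chr10:21993640-21993919 (GRCm38.p6, plus strand), held the palindromic glucocorticoid response element, AGAACA and TGTTCT set 3 bases apart, which was found in 3 of 32851 windows (0.00913%). This window is shown because the element is rare, with the match in capitals. The motif was chosen after the values of Sgk1 were seen. The windows of Mt1, Mt2, Polr3e, Adipor2, Cerk, Arid5b and Mt3 held 0 matches to it. Which of the 6 Sgk1 starts these cells use was not measured.
Sgk1: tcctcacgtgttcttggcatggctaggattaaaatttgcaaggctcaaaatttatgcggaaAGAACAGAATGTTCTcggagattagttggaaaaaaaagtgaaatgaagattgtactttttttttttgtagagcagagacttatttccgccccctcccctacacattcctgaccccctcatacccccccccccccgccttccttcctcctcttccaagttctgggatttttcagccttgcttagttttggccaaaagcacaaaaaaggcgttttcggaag
Hspa1a, an inducible chaperone, moved with the same library, at 107 CPM in trained 1 against 0 to 5.48 CPM elsewhere, in 17 of 111 cells. Hsph1, another chaperone, was measured at 129 CPM in trained 1 against 25.95 to 49.3 CPM elsewhere, and did not pass against control (log2 fold change 1.22, adjusted p = 0.334, edgeR) unless trained 2 (1.76, adjusted p = 8.61e-05) or a naris occluded library (1.21, adjusted p = 0.0192 and 0.0149, edgeR) was left out. Neither gene was high in MyOligo cells alone. In all other cells together trained 1 was also the highest library, with Hsph1 at 77.8 CPM against 30.8 to 42.5 CPM and Hspa1a at 28.2 CPM against 9.96 to 16.3 CPM. Hsph1 was highest in trained 1 in each of the 6 other cell types compared, for example at 179 CPM in precursors and 85.9 CPM in endothelial cells. The median log2 fold change of trained against control over the 10 heat shock genes tested was 0.39 beside 0.0059 over all genes, and none of the 10 was called (4 at an unadjusted p under 0.05, as were 342 of all 6587 genes, edgeR).

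Between naris occluded and control, 5 of 6587 genes passed (0.0759%), 3 of them higher (0.0455%) and 2 lower (0.0304%). The 3 higher genes came from red blood cell RNA in a single barcode. Hbb-bs, a beta chain of haemoglobin, was measured at 111 and 44.6 CPM in control, 113 and 1440 CPM in naris occluded, and 28.1 and 27.4 CPM in trained. Naris occluded 2 alone was high, and 1 cell of that library held 865 of its 906 UMIs. That cell also held 302 of 306 UMIs of Hba-a1 and 248 of 261 UMIs of Hba-a2, alpha chains whose reads are hard to tell apart. Summed over the 5 red blood cell markers, the level was 163 and 63.7 CPM in control and 156 and 2405 CPM in naris occluded, with Alas2 at 0 in all libraries. Log2 fold changes were 3.30 for Hbb-bs (adjusted p = 0.0149), 4.27 for Hba-a1 and 3.89 for Hba-a2 (adjusted p = 0.0396 for both, edgeR). Without cells holding markers of another type, Hbb-bs was at 0.05.

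S100a5 and Atp1b1 were lower in naris occluded. S100a5, a calcium-binding protein of olfactory sensory neurons, was measured at 262 and 293 CPM in control, 125 and 60.4 CPM in naris occluded, and 439 and 217 CPM in trained. Naris occluded libraries were the lowest, and the log2 fold change against control was −1.59 (SE 0.26, adjusted p = 0.0110, edgeR). All other cells together showed a log2 fold change of −1.76 (1286 and 1230 CPM in control, 550 and 213 CPM in naris occluded), and the difference from MyOligo was 0.19 (SE 0.20, adjusted p = 1, edgeR). The 4 sensory neuron markers summed to 171 and 161 CPM in control and 187 and 221 CPM in naris occluded in MyOligo, and their part in the result was not tested.

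Atp1b1, the beta subunit of the sodium pump, was measured at 209 and 174 CPM in control, 83.1 and 105 CPM in naris occluded, and 143 and 104 CPM in trained. Control libraries were the highest, and the log2 fold change was −1.02 (SE 0.20, adjusted p = 0.0396, edgeR), against −0.29 in the other cells, a difference that did not pass (adjusted p = 0.284, edgeR). Against precursor and ensheathing cells alone the difference was −0.93 (SE 0.20) and passed (adjusted p = 0.00423, edgeR). Both naris occluded libraries were nevertheless below both control libraries in microglia (111 and 129 CPM against 210 and 170 CPM), astrocytes (214 and 256 CPM against 313 and 341 CPM) and endothelial cells (174 and 213 CPM against 242 and 238 CPM). Neuronal markers, whose cells hold Atp1b1 at about 1548 to 2150 CPM, summed to 579 and 424 CPM in control and 367 and 377 CPM in naris occluded over 6 genes, with none of the 6 at 0 in all libraries, and their part was not tested. Without cells holding markers of another type, the log2 fold change of Atp1b1 was nearly as large at −0.93 (SE 0.21), with an adjusted p of 0.250 (edgeR). The call was also lost without control 1 (−0.89, adjusted p = 0.847) or naris occluded 1 (−0.84, adjusted p = 0.178, edgeR). DESeq2 called 0 genes in this comparison, where edgeR gave 251 genes at an unadjusted p under 0.05.

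Between trained and naris occluded, 11 of 6587 genes passed (0.167%), 8 of them higher in trained (0.121%) and 3 lower (0.0455%). DESeq2 called 0 genes here, where edgeR gave 431 at an unadjusted p under 0.05. Mt1, Mt2, Polr3e, Adipor2, Sgk1 and S100a5 were among these, with values given above, and both comparisons with trained share the trained libraries. Polr3e was higher by 1.39 (SE 0.22, adjusted p = 0.00135, edgeR) and Adipor2 by 1.59 (SE 0.24, adjusted p = 0.000989, edgeR) on the log2 scale. S100a5 was higher by 1.83 (SE 0.27, adjusted p = 0.000989, edgeR), and by 1.47 in the other cells. Hbb-bs and Hba-a2 were lower, with most of their UMIs of naris occluded 2 in the single barcode described above. Hbb-bs was also lower in trained than in naris occluded 1, which lacked that barcode, and its log2 fold change of −4.83 (SE 0.73) became −1.54 (SE 0.38, adjusted p = 0.0980, edgeR) without cells holding markers of another type, beside −1.14 in the other cells. Hba-a2 was at 15.6 CPM in naris occluded 1 against 2.81 and 5.48 CPM in trained. Cerk did not pass here. Without naris occluded 1, Mt1 gave 0.51 (adjusted p = 0.129) and Mt2 0.72 (adjusted p = 0.149, edgeR). Without cells holding markers of another type, 8 of the 11 genes were called, Fabp7 and Hbb-bs did not pass, Hba-a2 was not among the genes tested, and Meg3, a noncoding RNA, passed at 1.45 (adjusted p = 0.0445, edgeR). Without the 5 cells with newly formed markers, 6 of the 11 remained, whereas Mt2 (0.82, adjusted p = 0.0568), Sgk1 (2.19, adjusted p = 0.0513) and Fabp7 (−0.965, adjusted p = 0.0513, edgeR) kept about the same log2 fold change but did not pass.

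Marcks and Tmem2 completed the 8. Marcks was measured at 199 and 151 CPM in control, 51.9 and 134 CPM in naris occluded, and 304 and 285 CPM in trained. Both trained libraries were high, but the 5 cells with newly formed markers held 88 of 108 and 78 of 104 of their UMIs. The log2 fold change of 1.63 (SE 0.25, adjusted p = 0.000989, edgeR) became 0.02 without those cells. Tmem2, a hyaluronidase of the cell surface, had 10 of 12 UMIs of trained 1 and all 18 of trained 2 in them. The markers of newly formed cells (8 of 9 in the table) summed to 157 and 238 CPM in naris occluded and 301 and 356 CPM in trained.

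Fabp7, a fatty acid carrier of ensheathing cells and astrocytes, was lower in trained, at 318 and 192 CPM against 417 and 587 CPM in naris occluded and 431 and 352 CPM in control. Trained libraries were the lowest of the 6, with a log2 fold change of −0.99 (SE 0.20, adjusted p = 0.0225, edgeR) against naris occluded. In all other cells together it was −0.39, and the difference of −0.59 (SE 0.17) did not pass (adjusted p = 0.204, edgeR), whereas that from precursor and ensheathing cells alone did (−0.86, SE 0.16, adjusted p = 0.000322, edgeR). Both trained libraries were below both naris occluded libraries in precursors (845 and 1070 CPM against 1579 and 1667 CPM) and likewise in ensheathing cells, astrocytes, neurons, microglia and endothelial cells. The 6 ensheathing markers, Fabp7 among them, summed to 651 and 1009 CPM in naris occluded and 585 and 400 CPM in trained, with none at 0 in all libraries. In ensheathing cells themselves Fabp7 was at 12150 to 15010 CPM. Without cells holding markers of another type the log2 fold change was −0.78 (SE 0.19, adjusted p = 0.0958, edgeR). The call was also lost without naris occluded 2 or without trained 2, where the log2 fold change was smaller (−0.67 without trained 2, edgeR).

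**Figure D5:**
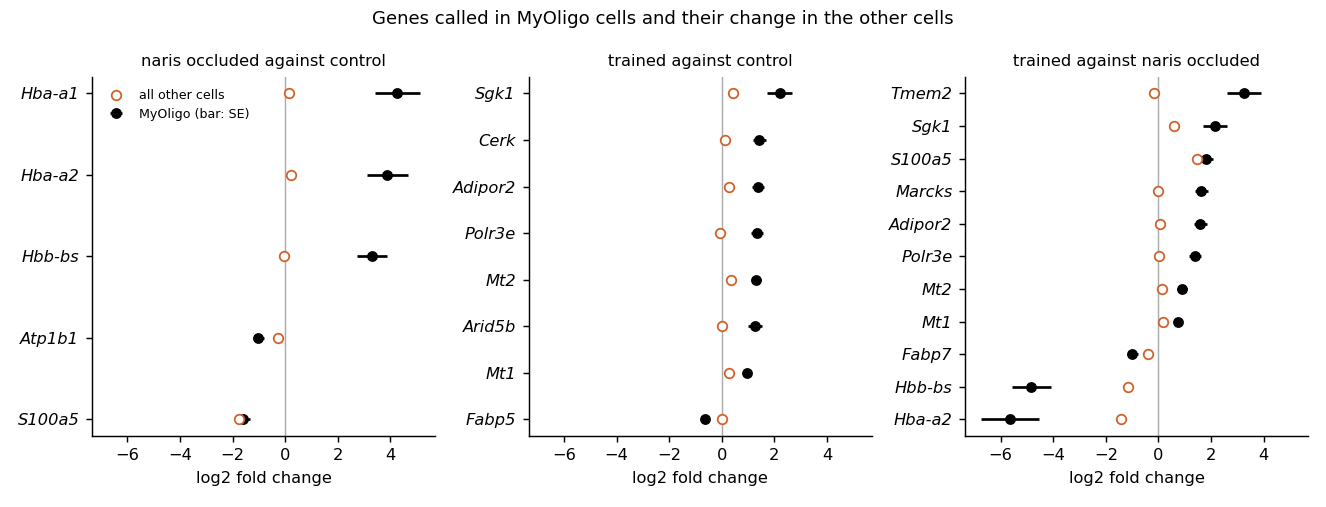
Log2 fold change of each gene called in MyOligo cells in the 3 comparisons, with black points for MyOligo (bars, SE) and open orange circles for all other cells of the same libraries. S100a5 has nearly the same value in both, whereas Mt1, Mt2, Polr3e and Adipor2 lie higher in MyOligo in both comparisons with trained.

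The genes that define these cells did not pass in any comparison as tested above, although some listed genes passed under other settings. Of the 30 myelin sheath genes, all tested, none was called. Their median log2 fold change was 0.01 in naris occluded against control, −0.06 in trained against control and −0.06 in trained against naris occluded, beside 0.0027, 0.0059 and 0.011 over all genes, with 0, 3 and 5 at an unadjusted p under 0.05, as were 251, 342 and 431 of all 6587 genes (edgeR). Mag changed by −0.14 (SE 0.13) and Mbp by 0.14 (SE 0.11) between trained and control. Opalin was measured at 1009 and 1135 CPM in control, 1170 and 1046 CPM in naris occluded, and 641 and 998 CPM in trained, and its log2 fold change of −0.39 between trained and control did not pass (adjusted p = 0.830, edgeR). Trained 1 was the lowest, and without trained 2, which left 1 trained library taken to vary like the others, Opalin passed at −0.74 against control (adjusted p = 0.00194) and −0.79 against naris occluded (adjusted p = 0.00039, edgeR). Ptgds is not particular to these cells, which held 15.5% of its UMIs, with 155000 CPM in Mes1. Its change in the other cells is not given here. In MyOligo it gave −0.42 (SE 0.11, adjusted p = 0.256, edgeR) between trained and control. It passed there with no filter on low counts (−0.45, adjusted p = 3.87e-05), without naris occluded 1 (−0.43, adjusted p = 0.00345), without naris occluded 2 (−0.43, adjusted p = 0.00470) and without trained 2 (−0.58, adjusted p = 4.49e-05, edgeR). Against naris occluded, Ptgds passed with no filter (−0.44, adjusted p = 4.86e-05), without naris occluded 1 (−0.42, adjusted p = 0.0414) and without trained 2 (−0.56, adjusted p = 7.51e-05, edgeR).

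No gene of myelin lipid synthesis (20 of 22 tested) was called, nor any of the 16 cholesterol genes tested of 22, the 14 lineage factors of 18, the 19 mature subtype genes of 20, the 6 iron genes of 14, the 13 metabolic genes of 15, the 16 receptors of 24 or the 9 immediate early genes of 19. Unadjusted p was under 0.05 for 0 to 4 genes of each of these lists per comparison, beside the counts over all genes given above (edgeR). The highest counts were 4 of 19 mature subtype genes in both comparisons with trained, with medians of −0.03 against control and −0.09 against naris occluded, and 3 of 20 lipid genes in trained against naris occluded (median −0.04). Of the 9 immediate early genes, 3 were under 0.05 in naris occluded against control, with a median of 0.40 and 5 of 9 above 0. The cholesterol genes had a median of −0.29 in trained against control, with 11 of 16 below 0, and −0.32 in trained against naris occluded, with 15 of 16 below 0, where 3248 and 3232 of all 6587 genes were below 0. Msmo1, a sterol oxidase, gave −0.50 (SE 0.24, adjusted p = 0.926, edgeR) between trained and control, and Sqle −0.59 (SE 0.39). The immune and stress list held Mt1 and Mt2 and no other called gene among its 11 tested of 17. Of the newly formed list 7 of 10 genes were tested and of the precursor list 1 of 10, with none called and at most 3 at an unadjusted p under 0.05 (edgeR). The 7 newly formed genes had a median of 0.58 in trained against control, with 7 of 7 above 0, and 0.63 in trained against naris occluded, with 6 of 7 above 0. Of all 6587 genes, 3339 and 3355 were above 0. The cells with newly formed markers held 22 of 23 Rras2 UMIs in trained 1 and 13 of 15 in trained 2. Without those cells Rras2 was at 2.89 and 5.68 CPM in trained against 3.38 and 6.53 CPM in control. Of Tcf7l2 those cells held 15 of 25 UMIs in trained 1 and 8 of 27 in trained 2. Some listed genes passed with 1 library left out, among them Cyp51 of the cholesterol genes in naris occluded against control without naris occluded 2 (1.52, adjusted p = 0.0116), and Trf in trained against naris occluded without trained 2 (−0.47, adjusted p = 0.0218, edgeR).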

How the data were processed

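The authors deposited raw counts of UMIs per gene and barcode in 1 table for 6 libraries, made per the labels with Cell Ranger 2.0.0 on mm10 after capture with the Chromium 3′ v2 chemistry. A deposited annotation, from Seurat 2.2.1 after removal of doublets, gave the library and cluster of 51426 of the 52549 barcodes. It was the source of both, because for both trained libraries the prefixes of the barcodes were swapped against it. Under the library column, Xist was found in replicate 2 alone and Ddx3y in replicate 1 alone of every group. Log-normalized values and an annotation of neurons were not used. Cluster names are those of the deposited annotation, and some differ from the names in the study's supplement. Mes1 held 653 cells here and 230 there, MicroG1 held 790 here and 2260 there, and neuronal clusters were numbered otherwise.

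Counts over 18560 genes were summed over the MyOligo cells of each library. Genes were tested with edgeR 4.0.16 (R 4.3.3) by its quasi-likelihood test on all 6 libraries with group as the only term, TMM factors, filterByExpr and Benjamini-Hochberg adjustment over 6587 genes, called at an adjusted p under 0.05. The difference from other cells was an interaction of cell type and group on 12 sums, with the library as a block, over 14717 genes. Numbers of cells were tested over 38 clusters by the same tool, with the annotated cells of the library as offset. The study also calls the libraries batches, so the pools of a group differ in mice, sex and batch together. The p-values measure that spread only in part. In the gene test within MyOligo, the spread of each gene was drawn toward a spread shared over genes. The weight of the shared spread was a median of 23.88 prior degrees of freedom. A gene that is high in a single library or cell can therefore pass, as Sgk1 and the haemoglobin genes did. Tests were tested on simulated data.

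Replicate numbers gave correlations of deviations from group means of 0.140, 0.0989 and 0.0952 over genes for the pairs of groups (0.0487, 0.0249 and 0.0189 without sex genes), so the numbers, which also stand for sex, were not taken as pairs and entered as a block only as an alternative. DESeq2 1.42.0, other filters and factors, left-out libraries and 2 subsets of cells were alternatives, and the subsets were chosen after seeing the data.

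The cells, gene lists and tests were chosen with earlier results of these data known. Genes named as changed were the up to 12 with the largest log2 fold change in each direction among those called with the same sign in both replicate numbers, those called with opposite signs, and the 6 with the smallest adjusted p in the difference from other cells. Where a comparison had fewer than 5 called genes of 1 sign in both numbers, the 5 with the smallest p were named, all of which were called here. Levels were named for the listed genes and the 20 highest. Hsph1 and its neighbours in trained 1 were listed genes, and genes chosen after their values were seen are marked. Promoters, 250 bases before to 50 after each start, came from RefSeq (GRCm38.p6), with a window for all 7 genes called higher in trained than control. Of the 12 myelinating markers, 1 is not reported here by itself.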

Additional observations from a re-analysis of the deposited data

Results flagged for a closer look

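A test of the difference between MyOligo cells and all other cells of the same libraries singled out the values below, each the log2 change in MyOligo minus that in the other cells. This fit gave every gene the shared spread, so a gene high in 1 library or in 1 cell can pass.

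Between trained and control the difference was 1.37 for Polr3e, 1.29 for Cerk, 1.23 for Arid5b, 1.11 for Adipor2, 0.96 for Mt2, 0.65 for Mt1 and −0.66 for Fabp5. It was 1.62 for Sgk1 and 4.71 for Hspa1a, both high in trained 1 alone. It was −1.91 for Ifi27l2a, an interferon-induced gene at 48.1 and 219 CPM in control and 36.6 and 24.7 CPM in trained, where 57 of 103 UMIs of control 2 lay in 1 cell. The adjusted p of these 10 genes ranged from 8.89e-12 to 0.0291 (edgeR).

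Between trained and naris occluded the difference was 3.46 for Tmem2, 1.66 for Marcks, 1.52 for Adipor2, 1.36 for Polr3e, 0.75 for Mt2, 0.60 for Mt1 and 1.44 for Sgk1. It was −4.48 for Hba-a2, −3.59 for Hbb-bs and −3.07 for Hba-a1. It was −1.66 for C1qb, a complement gene of microglia, at 74.4 and 167 CPM in naris occluded and 28.1 and 60.3 CPM in trained. Microglial markers (8 of 8 in the table, none at 0 in all libraries) summed to 256 and 639 CPM in naris occluded and 124 and 321 CPM in trained. Without cells holding markers of another type, C1qb was at 24.6 and 41.3 CPM in naris occluded and 18.6 and 21.1 CPM in trained.

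Between naris occluded and control the difference was 4.34 for Hba-a1, 3.93 for Hba-a2 and 3.25 for Hbb-bs, from the single barcode described above. It was 4.71 for Cd74, an antigen presentation gene with 20 of its 23 UMIs of naris occluded 2 in 1 cell. It was −2.45 for Sox11, a factor of immature neurons with 18 of 29 UMIs of control 1 in 1 cell, and −1.40 for Ifi27l2a.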

How the results depend on the processing

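Counts of called genes depended on the settings, in the order naris occluded against control, trained against control, trained against naris occluded, from 5, 8 and 11. DESeq2 called 0, 2 and 0, no filter on low counts gave 11, 15 and 26, and a mean of at least 10 UMIs 1, 5 and 7. Cells with at least 1000 UMIs gave 0 and 5 in the first 2. Without cells holding markers of another type the first 2 gave 1 and 13, without cells holding newly formed markers the first gave 3 and the last 6, and with only the 4 libraries compared the last gave 6. Leaving out 1 library at a time gave 5 (without control 1) to 17 (without naris occluded 1), 3 (without control 1) to 31 (without trained 2) and 18 (without either control library) to 59 (without trained 2). For the difference from other cells these ranges were 7 to 13, 1 (without control 2) to 14 and 14 (without naris occluded 2) to 28, and with precursor and ensheathing cells as the others the first comparison gave 6. The replicate block, in which number 1 is the male and 2 the female pool, gave 7, 10 and 18 genes, which held all 5, 8 and 11 and added Ifi27l2a (adjusted p = 0.00395) and Pcdh17, Ifi27l2a (0.00244) and Map7d2, and C1qb (0.00334), C1qc, Hsph1, Pcdh17, Tmod2, Hba-a1 and Sox11 (edgeR), and the share of cells in trained against naris occluded passed with it (−0.81). It changed no other share of cells. A chi-square test on pooled cells, which takes cells as replicates, passed in all 3 comparisons of shares (log2 ratios 0.395, −0.484 and −0.880). Without 1 library the log2 ratios of shares were 0.159 to 0.560, −0.659 to −0.243 and −1.04 to −0.604. Without trained 1, Sgk1 reversed to −0.17 against control and −0.20 against naris occluded, and over the left-out libraries its highest values were 3.05 and 3.01. Of the named genes' log2 fold changes under all settings, 365 kept direction and call, 83 lost the call, 30 gained it and 2 reversed. The cause was not tested. Most genes near 1 UMI per library were left out by the filter on low counts.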

Other observations

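Fkbp5, a glucocorticoid-induced cochaperone chosen after its values were seen, was measured in MyOligo at 6.64 and 2.12 CPM in control, 1.73 and 4.77 CPM in naris occluded, and 36.6 and 11.0 CPM in trained. Trained 1 stood apart, whereas trained 2 at 11.0 CPM lay close to control 1 at 6.64 CPM. Such low levels rest on few UMIs, and no test is given for this gene. In microglia of trained 1 it was at 57.9 CPM, against 14.3 to 22.1 CPM in the other libraries. Tsc22d3, another such gene, gave a log2 fold change of 0.09 (SE 0.19) between trained and control in MyOligo, beside 0.86 in the other cells (adjusted p of the difference 0.0839, edgeR). Per1, Klf9 and Zbtb16 were looked at with them in MyOligo. Per1 was at 8.296 and 6.365 CPM in control and 25.31 and 8.222 CPM in trained. Klf9 was at 63.05 and 72.13 CPM in control and 84.38 and 63.04 CPM in trained. In both, control and trained overlapped. Zbtb16 was at 3.318 and 2.122 CPM in control, 3.46 and 11.13 CPM in naris occluded, and 14.06 and 16.44 CPM in trained.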
